A study of Mus musculus with 6 samples.

Results

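The genes described here are 37 genes of the cell division cycle, listed by symbol with earlier results of these data known. They comprise 11 genes of DNA replication and nucleotide supply, 19 genes that act from the G2 phase through mitosis, 5 G1 cyclins and 2 inhibitors of cyclin-dependent kinases. All 37 were found among the 23394 genes matched in the deposited tables, and all 37 passed the filter on low values that left 15619 genes for testing. The RNA came from liver cells that carried F4/80, a surface antigen of mouse macrophages, and that were collected on magnetic columns after digestion of the liver. The KO group held 3 libraries from mice whose genotype is labelled KO, and the WT group held 3 libraries from mice labelled wild type. All were male C57BL/6 mice, 3 months old, and all had been given carbon tetrachloride (CCl4) intraperitoneally, a hepatotoxin that leads to fibrosis. The labels do not name the gene that the KO mice lack, the cells in which it is missing, or whether the libraries of a group stem from different animals. The p-values therefore reflect variation among these 6 libraries, which may be partly technical. There was no group without CCl4.

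The recovered reads, with 1 transcript kept per gene, ran from 10790842 to 19163317 in the KO libraries and from 15027644 to 22157238 in the WT libraries. The label of macrophage was met by defining markers in every library. Adgre1, which encodes F4/80, stood at 5254 ± 1233 normalised counts in KO and 6208 ± 1613 in WT libraries (SD, n = 3 each), and Cd68 and Vsig4 had log2 changes of 0.06 and 0.08. Other macrophage markers were further apart. Csf1r stood at 16690 ± 1352 in KO and 32120 ± 7500 in WT libraries, and Marco, a scavenger receptor, at 6252 ± 680 in KO and 23110 ± 15510 in WT libraries, both with all KO values below all WT values. Clec4f, a marker of Kupffer cells, stood at 7182 ± 2322 in KO and 3190 ± 72.9 in WT libraries, with all KO values above. None of the 18 macrophage markers was called by limma, where 2.44% of all genes tested were. Their sum was 79310 to 100600 in KO and 77420 to 181900 in WT libraries. Other cells were present too. The summed level of 18 hepatocyte markers was 139400 to 254700 in KO and 39680 to 126500 in WT libraries. All 18 were above 0 in log2 change, and 7 were called higher in KO by limma's adjusted p, where 2.09% of all genes were. For 16 endothelial markers the sums were 86920 to 180400 in KO and 41770 to 78620 in WT libraries. All 16 were above 0 in log2 change, and 5 were called higher in KO, beside the same 2.09%. The 11 erythroid markers found summed to 238800 in KO replicate 1, 93870 in KO replicate 2 and 28600 in KO replicate 3, against 3029 to 30680 in WT libraries. Rhag, an erythroid membrane protein gene, had no read in at least 1 library. The stellate cell sums were 33220 to 59210 in KO and 20310 to 27090 in WT libraries. Of 14 stellate markers, 12 were above 0 and 1, Col1a1, was called higher in KO, beside the same 2.09%. The sums of cholangiocyte markers were 1853 to 2545 in KO and 539.7 to 1788 in WT libraries. Of these markers, 7 of 7 tested were above 0 and 0 were called, beside 2.44% of all genes. Averaged as log2(value + 1) over the tested genes, the stellate and the cholangiocyte lists overlapped between the groups. The sums of T and NK cell, B cell and neutrophil markers overlapped between the groups. Log2 changes were below 0 for 5 of 12 T and NK cell markers and 3 of 8 B cell markers. They were below 0 for 8 of 10 neutrophil markers (median -0.44), of which 1 had all KO values below all WT values. Limma called 0 in these lists, beside 2.44% of all genes. Mitochondrial genes took 16.2% to 19.95% of the reads in KO libraries, against 16.6%, 27.5% and 6.19% in WT replicates 1, 2 and 3. Dividing erythroid precursors also express replication and mitotic genes, and the part of these other cells in the results below was not tested. In such bulk RNA, fewer dividing cells and less of these RNAs per dividing cell cannot be told apart.

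A cell that enters the cycle first makes D-type and E-type cyclins, which activate kinases that release E2F factors from the retinoblastoma protein. E2F factors switch on the genes of replication, among them the MCM helicase that opens DNA, the sliding clamp PCNA and the enzymes that supply deoxynucleotides. Genes of G2 and mitosis peak later, held silent in resting cells by the DREAM complex and activated by B-Myb and FoxM1 through short promoter elements. Replication and mitotic genes can therefore be read as markers of different phases. Macrophages of the liver are known to renew in part by local division, and their number rises after injury both by division and by recruitment of monocytes.

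No member passed the test, and the mitotic genes lay further below 0 than the replication genes. All 19 mitotic genes had a log2 change below 0, with a median of -0.49. All 11 replication genes were also below 0, with a median of -0.20, although Mcm3 and Mcm6 lay above 0 when macrophage markers set the scale, and Mcm3 also when all transcripts of a gene were summed. Over all 15619 genes tested the median was 0.05, and 45.8% of genes were below 0. Changes are KO minus WT of log2(value + 1), which understates changes of low genes. By limma with Benjamini-Hochberg adjustment over all genes, 0 of 37 members were called at an adjusted p under 0.05, where 2.44% of all genes were (0.352% lower and 2.09% higher in KO). The smallest adjusted p was 0.0922, for Mki67. At an unadjusted p under 0.05, 8 of 37 members were lower and none higher, of which 6 were mitotic. That is 31.6% of the mitotic genes, where 5.9% of all genes tested were lower and 12.1% higher at that level. edgeR's quasi-likelihood test and limma-voom on the recovered reads also called 0 of 37, where they called 1.81% and 2.14% of all genes. DESeq2 called 1 of 37, Mki67, where it called 9.02% of all genes. The KO values all lay below the WT values for 6 of 19 mitotic genes and 0 of 11 replication genes, where this held for 9.25% of all genes tested. No member had all KO values above all WT values, where 13.7% of all genes did.

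**Figure D1:**
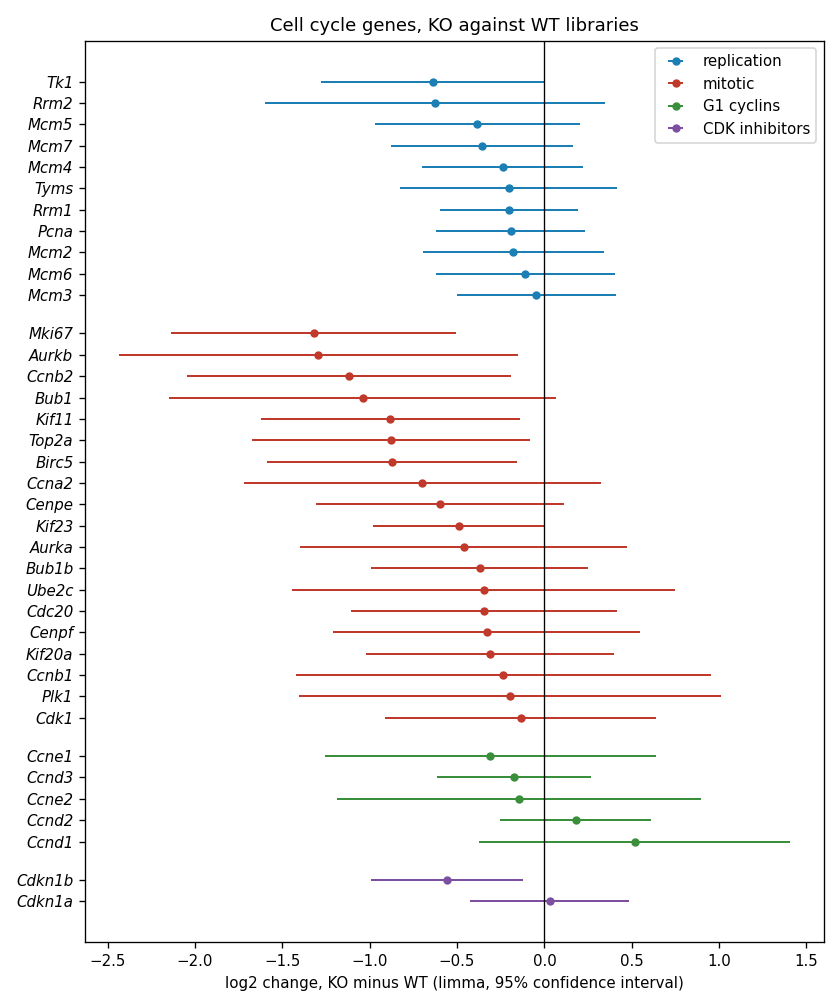
Log2 change of each of the 37 genes, KO minus WT, with its 95% confidence interval from limma (n = 3 libraries per group); genes are grouped by phase and ordered by change within each. The 19 mitotic genes (red) and 11 replication genes (blue) all lie left of 0 with the authors' scaling, Mki67 is lowest at -1.32 and Ccnd1 highest at 0.52.

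Promoters of the lists were compared for such short elements. Since mitotic genes are known to be controlled through them, the shares describe the lists and do not bear on the change in KO libraries. RefSeq promoters of GRCm38.p6 that begin 250 bases before a gene's start and end 50 after it were found within 500 bases of the kept transcript's start for 29 of the 37 genes and for 10209 of the genes tested. The elements searched on both strands were the cell cycle homology region, CHR (TTTGAA or TTTAAA), the CCAAT box (CCAAT) and the E2F element (TTCCCGC or TTGGCGC). CHR letters were in 15 of 16 mitotic promoters, or 93.8%, and in 4 of 9 replication promoters, or 44.4%, where 19.4% of all promoters held them. CCAAT letters, with or without CHR letters, were in 93.8% of the mitotic and 77.8% of the replication promoters, and in 38.2% of all. A CHR and a CCAAT box together were in 87.5% of the mitotic and 33.3% of the replication promoters, and in 7.66% of all. In the further lists of mitosis and replication genes described below, CHR letters were in 65.9% of 41 and 16.7% of 30 promoters. Both elements together were in 51.2% and 13.3% of these. E2F letters were in 4 of 9 replication promoters, in 18.8% of the mitotic ones and in 12.2% of all. CCAAT letters can overlap E2F letters (GCGCCAAT), and both were then counted. A match is a description of these letters and not a site that was shown to be bound.

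Below are the promoters of 3 mitotic and 2 replication genes as examples, 5′ to 3′ on the gene's strand. CHR, CCAAT box and E2F letters are in capitals. The promoters show CHR and CCAAT letters side by side near the start of Kif11 and Ccnb2, and E2F letters in both MCM genes. Mki67 also holds E2F letters and Mcm5 CHR letters. Mitotic genes whose KO and WT values overlapped, such as Plk1 and Cdk1, held CHR letters too. Birc5, whose values did not overlap, held no CCAAT letters. Among replication genes, Mcm2, Pcna, Rrm2, Tyms and Tk1 held no E2F letters, and Mcm2 held CHR and CCAAT letters. Mki67 lies at chr7:135716330-135716629, minus strand, Ccnb2 at chr9:70421505-70421804, minus strand, and Kif11 at chr19:37376132-37376431, plus strand. Mcm3 lies at chr1:20820263-20820562, minus strand, and Mcm5 at chr8:75109259-75109558, plus strand. All coordinates are in GRCm38.p6.
Mki67: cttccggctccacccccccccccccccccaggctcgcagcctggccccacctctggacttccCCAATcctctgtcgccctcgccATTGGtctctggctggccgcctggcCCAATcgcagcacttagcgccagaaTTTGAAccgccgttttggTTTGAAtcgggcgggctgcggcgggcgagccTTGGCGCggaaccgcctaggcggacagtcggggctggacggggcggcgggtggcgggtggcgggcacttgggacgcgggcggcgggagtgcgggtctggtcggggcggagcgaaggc
Ccnb2: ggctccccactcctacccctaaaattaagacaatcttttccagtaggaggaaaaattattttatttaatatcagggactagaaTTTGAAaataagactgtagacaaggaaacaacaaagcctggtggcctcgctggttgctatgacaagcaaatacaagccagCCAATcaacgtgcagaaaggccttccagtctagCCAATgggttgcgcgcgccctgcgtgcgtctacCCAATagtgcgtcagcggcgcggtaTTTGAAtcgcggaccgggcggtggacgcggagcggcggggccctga
Kif11: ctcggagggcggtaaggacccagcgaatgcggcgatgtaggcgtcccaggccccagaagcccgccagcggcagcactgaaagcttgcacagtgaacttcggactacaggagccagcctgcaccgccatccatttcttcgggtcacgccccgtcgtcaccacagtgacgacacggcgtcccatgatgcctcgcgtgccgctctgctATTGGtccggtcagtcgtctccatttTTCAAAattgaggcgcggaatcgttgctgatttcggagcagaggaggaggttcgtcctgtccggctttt
Mcm3: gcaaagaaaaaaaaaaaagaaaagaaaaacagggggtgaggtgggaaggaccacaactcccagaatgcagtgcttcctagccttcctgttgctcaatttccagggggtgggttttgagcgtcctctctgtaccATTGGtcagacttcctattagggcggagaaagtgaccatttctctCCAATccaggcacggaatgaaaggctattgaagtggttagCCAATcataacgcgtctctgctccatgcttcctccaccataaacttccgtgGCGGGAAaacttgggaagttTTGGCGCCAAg
Mcm5: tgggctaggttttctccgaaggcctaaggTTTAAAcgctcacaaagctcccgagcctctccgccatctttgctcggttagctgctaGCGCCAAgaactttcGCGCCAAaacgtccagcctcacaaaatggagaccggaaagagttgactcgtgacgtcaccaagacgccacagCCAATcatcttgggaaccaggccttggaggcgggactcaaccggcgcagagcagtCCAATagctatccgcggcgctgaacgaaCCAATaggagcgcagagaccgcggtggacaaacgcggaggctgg

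**Figure D2:**
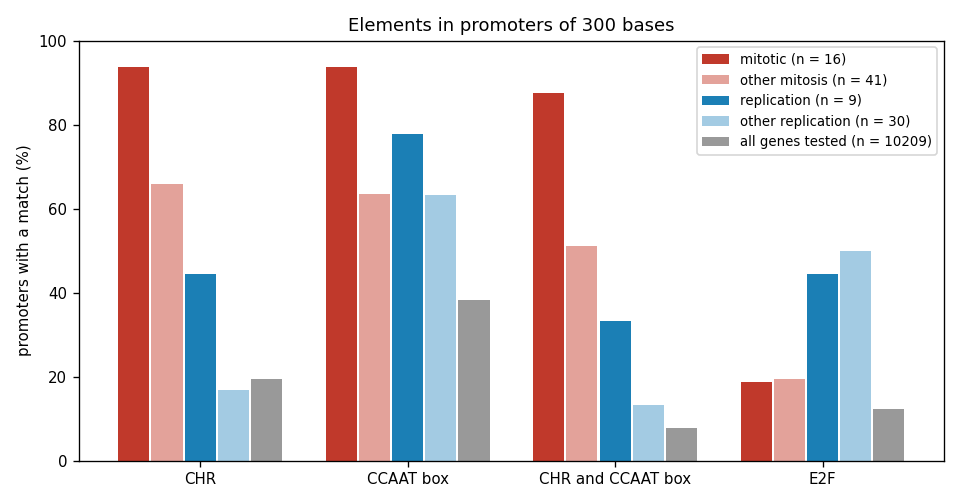
Share of promoters of 300 bases with at least 1 match to each element, in percent, for 2 lists of mitotic and 2 of replication genes and for all genes tested; n is the number of genes with a promoter. CHR matches stand at 93.8% of the mitotic and 44.4% of the replication genes, against 19.4% of all.

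Genes of mitotic chromosome structure included Mki67, the member with the lowest log2 change. Mki67 encodes Ki-67, a coat of mitotic chromosomes made in all phases of the active cycle. It stood at 454, 189 and 548 normalised counts in KO replicates 1, 2 and 3, against 730, 976.5 and 1033 in WT replicates 1, 2 and 3. Every KO library was below every WT library, and KO replicate 2 was lowest. The log2 change was -1.32 (SE 0.36, 95% interval -2.14 to -0.50, limma adjusted p = 0.0922), and it ran from -1.62 to -0.85 with 1 library left out. DESeq2 called it, with an adjusted p of 0.0135, as did limma after scaling to equal total reads, at 0.0455, where that fit called 3.5% of all genes, while edgeR's adjusted p was 0.0984. Top2a, the topoisomerase that untangles sister chromatids, had 416, 182 and 401 in KO and 399, 753 and 632 in WT libraries. WT replicate 1 overlapped with the KO values, and the log2 change was -0.88 (SE 0.35, limma adjusted p = 0.233). Cenpe and Cenpf, kinetochore proteins that attach chromosomes to the spindle, had log2 changes of -0.60 and -0.33, and only the groups of Cenpe did not overlap.

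None of the cyclins and the kinase of mitotic entry passed the test. Ccnb2, a B-type cyclin, had 83.4, 40.5 and 76.1 normalised counts in KO libraries, against 103, 218 and 120 in WT libraries. The groups did not overlap, although KO replicate 1 and WT replicate 1 were close (log2 change -1.12, SE 0.41, limma adjusted p = 0.189). Ccnb1, the other B-type cyclin, rested on only 11 to 32 reads per library, with 22.7 ± 5.45 normalised counts in KO and 27.1 ± 7.94 in WT libraries (SD, n = 3 each). Its interval, -1.42 to 0.95, allows a change as large as that of Ccnb2. Both B-type cyclins have a processed copy in the annotation, Ccnb1-ps and Ccnb2-ps, and how multi-mapping reads were counted was not stated. Cdk1, the kinase that these cyclins activate, stood at 141 ± 45.6 in KO and 155 ± 50.4 in WT libraries, with a log2 change of -0.14 that lay above 0 without KO replicate 2 or without WT replicate 2. Ccna2, the A-type cyclin of S and G2 phase, had 244, 64.3 and 171 in KO and 172, 271 and 249 in WT libraries (log2 change -0.70, SE 0.45, limma adjusted p = 0.478). KO replicate 2 was lowest here as well, and 14.4% of the kept Ccna2 transcript overlaps exons of Exosc9 on the other strand.

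The chromosomal passenger and checkpoint genes followed. Birc5, which encodes survivin, had 84.9, 85.8 and 61.7 normalised counts in KO libraries and 106, 169 and 157 in WT libraries. The KO values were all below the WT values (log2 change -0.87, SE 0.32, limma adjusted p = 0.186). Aurkb, the kinase of the same complex, had 142, 32.2 and 49.9 in KO, against 125, 193 and 144 in WT libraries. KO replicate 1 lay within the WT range. That library also had the highest erythroid sum, 238800, of which Hbb-bs, a globin gene, was 132200. It had the highest T and NK cell sum as well, 16680, and the part of either in this value was not tested. The log2 change of Aurkb was -1.29 (SE 0.51, limma adjusted p = 0.219) with all libraries and -1.89 without KO replicate 1, where it was called (limma adjusted p = 0.0304) in a fit that called 1.04% of all genes lower in KO. Bub1 and Bub1b, kinases of the spindle checkpoint, had log2 changes of -1.04 and -0.37, and both groups overlapped. Bub1 had 26.8, 33.4 and 55.8 in KO, against 43.3, 122 and 85.9 in WT libraries. Aurka and Plk1, kinases of the spindle poles and of mitotic entry, had log2 changes of -0.46 and -0.20. Plk1 lay above 0 in 3 of 6 fits without 1 library, at up to 0.13.

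Motor proteins of the spindle and midzone included more genes with separated groups. Kif11, the motor that pushes spindle poles apart, had 148, 70.3 and 111 normalised counts in KO libraries, against 159, 225 and 204 in WT libraries. The highest KO and lowest WT libraries, replicate 1 of each group, were close (log2 change -0.88, SE 0.33, limma adjusted p = 0.196). Kif23, a motor of the central spindle, had 218, 187 and 235 in KO, against 287, 341 and 271 in WT libraries. The groups did not overlap, and its log2 change was -0.49 (SE 0.22, limma adjusted p = 0.28). Kif20a, another motor of the central spindle, averaged 117 in KO and 151 in WT libraries and overlapped, with 20.7% of its kept transcript shared with exons of Cdc23 on the other strand. Cdc20 and Ube2c, which direct the anaphase-promoting complex that ends mitosis, had log2 changes of -0.34 and -0.35. Ube2c had 170 normalised counts in KO replicate 1 and 53.6 and 79.5 in KO replicates 2 and 3, against 67.0 to 157 in WT libraries, so its groups overlapped widely.

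**Figure D3:**
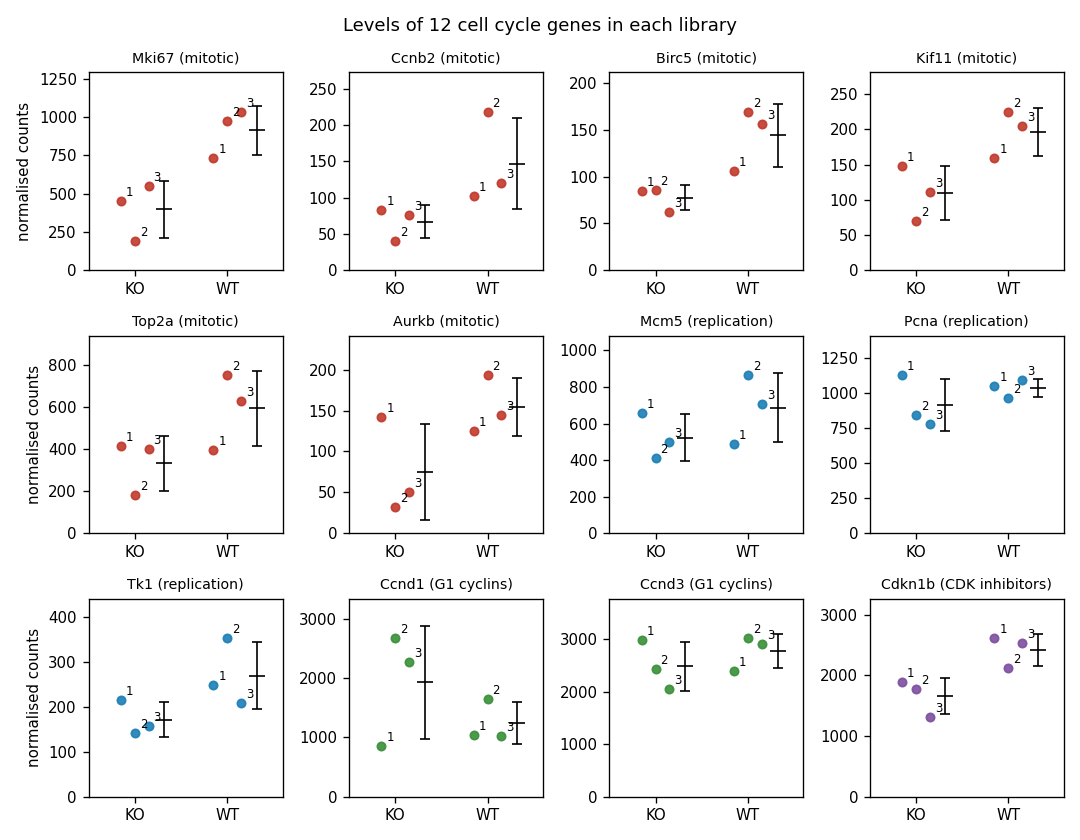
Normalised counts of 12 genes in each library, KO left and WT right; numbers beside the points are replicates, the bar is the mean and its whiskers the SD (n = 3 per group), and each axis starts at 0. Mki67, Ccnb2, Birc5, Kif11 and Cdkn1b have all KO points below all WT points, while the replication genes overlap.

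Among the replication genes the groups overlapped for all 11. The MCM genes encode the 6 subunits of the replicative helicase, and their log2 changes ran from -0.38 for Mcm5 to -0.05 for Mcm3, whose kept transcript is annotated as a retained intron. Mcm5 had 660, 410 and 497 normalised counts in KO libraries, against 488, 864 and 709 in WT libraries. KO replicates 1 and 3 lay above WT replicate 1 (SE 0.26, limma adjusted p = 0.498). Mcm6 had 1126, 683 and 698 in KO and 766, 915 and 962 in WT libraries, so that KO replicate 1 was the highest of all. Mcm2 stood at 476 ± 59.2 in KO and 548 ± 147 in WT libraries, and Mcm4 at 692 ± 149 and 809 ± 93.9 in KO and WT libraries (SD, n = 3 each). Mcm7 had a log2 change of -0.36, with 10.8% of its kept transcript on exons of Ap4m1 on the other strand. Intervals of the 6 MCM genes all spanned 0 and reached from -0.97 to 0.41.

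Pcna, the clamp that holds polymerases on DNA, had 1129, 846 and 778 normalised counts in KO libraries, against 1052, 965 and 1095 in WT libraries. The highest and the lowest values were both KO libraries (log2 change -0.19, 95% interval -0.62 to 0.23, limma adjusted p = 0.658). Rrm1 and Rrm2 are the large and the small subunit of ribonucleotide reductase, which makes deoxynucleotides. Rrm1 stood at 661 ± 85.6 in KO and 756 ± 34.1 in WT libraries (SD, n = 3 each). Rrm2, the subunit made in S phase, had 156, 58.4 and 184 in KO, against 140, 195 and 228 in WT libraries. KO replicate 2 was lowest, and the log2 change of -0.63 (SE 0.43, limma adjusted p = 0.506) was -0.12 without it. Tk1, a thymidine kinase of S phase, had 216, 141 and 158 in KO and 248, 353 and 208 in WT libraries. Its groups overlapped by KO replicate 1 and WT replicate 3 alone (log2 change -0.64, SE 0.28, limma adjusted p = 0.275). Tyms, which makes thymidylate, had a log2 change of -0.20; its kept transcript is annotated as a target of nonsense-mediated decay, and a copy, Tyms-ps, exists, as do copies of Pcna.

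Set side by side within each library, the mitotic list less the replication list overlapped between the groups. The list level is the mean of log2(value + 1) over its genes, given relative to the mean of the WT libraries. The mitotic level was -0.36, -1.07 and -0.45 in KO replicates 1, 2 and 3, against -0.38, 0.30 and 0.08 in WT replicates 1, 2 and 3. The replication level was -0.06, -0.53 and -0.27 in KO, against -0.18, 0.16 and 0.02 in WT libraries. Mitotic minus replication was -0.30, -0.54 and -0.17 in KO, against -0.20, 0.14 and 0.06 in WT libraries. WT replicate 1 thus lay within the KO values for the mitotic level and for the difference, and no p is given for levels over chosen genes. The median change of the mitotic list less that of the replication list was -0.29, and it ranged from -0.51 without WT replicate 1 to -0.22 without WT replicate 2. KO replicate 2 held the lowest value of the 6 libraries for 20 of 37 genes, and WT replicate 2 the highest for 20 of 37. These ranks were counted over the 37 genes only, so whether the 2 libraries stand likewise for genes in general was not tested. KO replicate 2 also had the highest endothelial sum, 180400, and WT replicate 2 the highest macrophage sum, 181900, and the highest mitochondrial share, 27.5%. The part of these in the values was not tested.

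**Figure D4:**
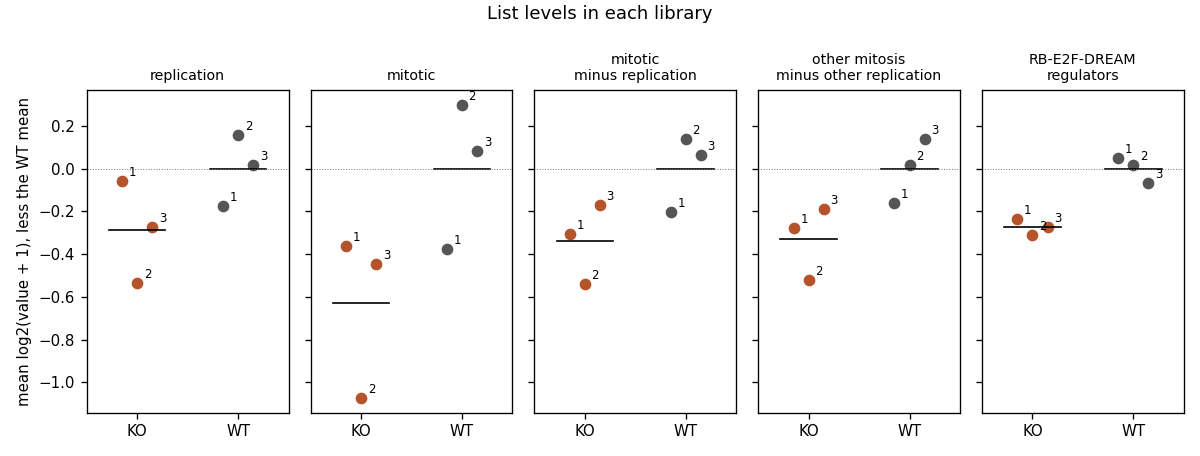
Mean log2(value + 1) of each list in each library, less the mean of the 3 WT libraries, or the difference of 2 such lists; points are libraries with their replicate numbers, KO left and WT right, and lines are group means. The mitotic level of KO replicate 2 is lowest at -1.07, and WT replicate 1 lies at -0.38, within the range of the KO libraries.

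The further genes of replication and mitosis, a list of 40 and a list of 52, gave the same order. Both lists were measured in the same 6 libraries and chosen with earlier results of these data known, so they are not independent evidence. Of 52 further mitosis genes, 44 had a log2 change below 0 (median -0.47), and the KO values all lay below the WT values for 15, or 28.8%, where 9.25% of all genes did. None was called by limma, where 2.44% of all genes were. At an unadjusted p under 0.05, 10, or 19.2%, were lower and 0 higher, where 5.9% and 12.1% of all genes were. Tacc3, a spindle protein, had 146, 139 and 198 normalised counts in KO, against 256, 336 and 280 in WT libraries (log2 change -0.85, SE 0.25, limma adjusted p = 0.102). Knl1, a scaffold of the kinetochore, stood at 12.2 ± 4.04 in KO and 64.6 ± 40.7 in WT libraries, and the motors Kif15 and Kif4 had log2 changes of -1.35 and -0.83. Of 40 further replication genes, 27 had a log2 change below 0 (median -0.18), and limma called 0, where it called 2.44% of all genes. At an unadjusted p under 0.05, 2 were lower and 3 higher, where 5.9% and 12.1% of all genes were. The KO values all lay below the WT values for 5 of the 40, or 12.5%, and above them for 3. Pole, the catalytic subunit of a leading-strand polymerase, and Chaf1a, a chromatin assembly factor, had log2 changes of -0.98 and -0.72. Timeless, a fork protection protein, and Pold2, a subunit of another polymerase, had 0.67 and 0.58. The level of the further mitosis list was -0.30, -0.86 and -0.41 in KO, against -0.32, 0.17 and 0.15 in WT libraries. It overlapped between the groups, as did the level of the further replication list. The further mitosis level less the further replication level was -0.28, -0.52 and -0.19 in KO, against -0.16, 0.02 and 0.14 in WT libraries. Every KO library lay below every WT library in this difference, although KO replicate 3 and WT replicate 1 were close.

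**Figure D5:**
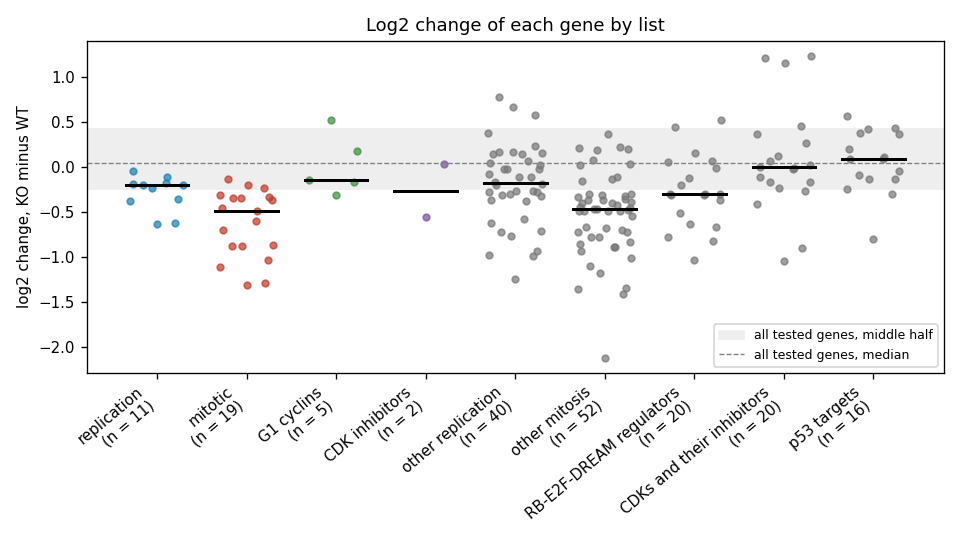
Log2 change, KO minus WT, of each gene of 9 lists, with the median of each list as a black line; the grey band spans the quartiles of all 15619 genes tested and the dashed line their median, 0.05. The mitotic medians, -0.49 and -0.47, lie below the band, and the replication medians, -0.20 and -0.18, within it.

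The regulators of these genes were mostly below 0, in a list that mixes activators and repressors. Of 20 genes of the retinoblastoma, E2F and DREAM system, 15 had a log2 change below 0 (median -0.30) and 5 above. None was called by limma, where 2.44% of all genes were. At an unadjusted p under 0.05, 3 were lower and 0 higher, where 5.9% and 12.1% of all genes were. The KO values all lay below the WT values for 5 genes and above them for 1, where 9.25% and 13.7% of all genes did. Rb1, the retinoblastoma protein, had 1162, 1054 and 890 normalised counts in KO libraries, against 2555, 1493 and 1610 in WT libraries. All KO values were below all WT values (log2 change -0.83, SE 0.23, limma adjusted p = 0.094). E2f2, an activating E2F factor, had 600, 637 and 310 in KO, against 1215, 839 and 1001 in WT libraries, also without overlap (log2 change -1.03, SE 0.29, limma adjusted p = 0.0943). E2f1, another activating E2F factor, stood at 181 ± 14.2 in KO and 286 ± 63.3 in WT libraries (SD, n = 3 each; log2 change -0.64). E2f8, a repressing E2F factor, had a log2 change of -0.78. Foxm1 and Mybl2, which encode the activators FoxM1 and B-Myb, both had a log2 change of -0.30. The groups of both overlapped (limma adjusted p = 0.768 and 0.849). E2f5 was the highest of the list, at 0.52, with all KO values above all WT values. The level of the whole list was -0.24, -0.31 and -0.27 in KO, against 0.05, 0.02 and -0.07 in WT libraries, and it did not overlap.

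The G1 cyclins were mixed, with 3 of 5 below 0 and all 5 overlapping. Ccnd1, a D-type cyclin induced by growth signals, had 852, 2668 and 2263 normalised counts in KO libraries, against 1041, 1642 and 1025 in WT libraries. KO replicate 1 was lowest of all and the other KO libraries highest (log2 change 0.52, SE 0.40, limma adjusted p = 0.558). Without KO replicate 1 the change was 1.03 and called, with a limma adjusted p of 0.0494, in a fit that called 3.95% of all genes higher in KO. KO replicates 2 and 3 had higher endothelial sums, 180400 and 138600, than KO replicate 1, at 86920; the part of those cells was not tested. In addition, 21.9% of the kept Ccnd1 transcript lies on exons of LTO1 on the other strand. Ccnd2 stood at 1433 ± 240 in KO and 1261 ± 169 in WT libraries, with a 95% interval of the change from -0.25 to 0.61. Ccnd3, the D-type cyclin of highest level here, stood at 2488 ± 469 in KO and 2783 ± 331 in WT libraries (SD, n = 3 each), with 17.1% of its kept transcript on exons of Bysl on the other strand. Ccne1 and Ccne2, the E-type cyclins of entry into S phase, were low, at 44.6 and 30.6 in KO and 53.2 and 34.6 in WT libraries, and their intervals together reached from -1.26 to 0.89.

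Neither inhibitor of cyclin-dependent kinases passed the test. Cdkn1b, which encodes p27 and holds cells in G1, had 1880, 1772 and 1312 normalised counts in KO libraries, against 2607, 2117 and 2528 in WT libraries. The groups did not overlap, and the log2 change was -0.56 (SE 0.19, 95% interval -0.99 to -0.12, limma adjusted p = 0.165). Its p was the second smallest of the 37 genes, and DESeq2's adjusted p was 0.0532. Cdkn1a, which encodes p21 and is a target of p53, had 2247, 1533 and 1451 in KO, against 1781, 1540 and 1709 in WT libraries. The change was 0.03 (95% interval -0.42 to 0.49), and its sign turned with the scaling, at -0.02 with TMM factors in limma.

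Levels of the genes can be compared with each other only per length, as normalised counts per kilobase of the kept transcript. On that scale Ccnd3 was highest, at 1206 in KO and 1348 in WT libraries, followed by Cdkn1a, at 912 and 876 in KO and WT libraries. Ccnd3 has a copy in the annotation, Ccnd3-ps, and 1 of its 21 transcripts was kept. How multi-mapping reads were counted was not stated. Pcna, at 605 in KO and 683 in WT libraries, was the highest of the replication genes, which otherwise held 25.9 to 229 in KO and 29.7 to 238 in WT libraries. The lower ends are Tyms and the upper ends Mcm3. Their kept transcripts are annotated as a target of nonsense-mediated decay and a retained intron, so these ends may not stand for the level of the gene. Mitotic genes overlapped with the range of the replication genes, from 7.01 for Cenpf to 104 for Ube2c in KO libraries and from 8.4 to 126 for the same genes in WT libraries. Mki67 stood at 39.5 in KO and 90.8 in WT libraries on this scale.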

How the data were processed

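The study sequenced RNA from liver cells selected for F4/80, with 3 KO and 3 WT libraries grouped by the labels. The submitters' processing notes name the build GRCm38.p4 and the tools STAR 2.4.0k, DESeq 1.8.3 and HTSeq 0.5.3 but not their roles. Options for counting and strand were not stated, though the kit marks strand. Each deposited table gives a signal for 79382 transcripts, which per the file headers is a normalised count; every value was a whole multiple of the smallest (100% within 0.001), so the authors divided reads by 1 factor per library and whole reads were recovered. Per gene, the transcript of highest mean was kept (GENCODE M21, 78332 transcripts matched). The test was limma 3.58.1 with a trended prior on log2(value + 1), genotype as the only term, over 15619 genes kept by filterByExpr, with two-sided p-values adjusted by the Benjamini-Hochberg method. edgeR 4.0.16, with 282 genes called on the recovered reads, and DESeq2 1.42.0 were alternatives. On simulated data for KO against WT with 15619 genes, limma called 22% of 50 genes changed by 1 on the log2 scale, 84% of 50 changed by 2, and 6 of 15419 unchanged genes. With 3 libraries in each group, smaller changes are detected rarely. Promoter sequences are RefSeq's. All 37 genes were named by rule, with up to 4 of smallest p from each further list and defining markers. Foxm1, Mybl2 and E2f5 were named in addition. The genes and lists were chosen with earlier results of these data known.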

Additional observations from a re-analysis of the deposited data

How the results depend on the processing

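The median log2 changes of the mitotic and replication genes stayed below 0 in all 19 alternatives, at -0.80 to -0.36 and -0.35 to -0.07. With macrophage markers as the scale the median of all genes was 0.18 in place of 0.05, and relative to it both lists stood where they did before, at -0.54 and -0.25, since that scale takes the same amount from every gene of a library. Of 37 genes, DESeq2 and scaling to equal total reads called 1 each (Mki67), and 0 to 2 were called without 1 library (Aurkb and Ccnd1 without KO replicate 1). Over all genes, 381 were called in the main test, 1409 by DESeq2, 233 with transcripts summed, and 8 to 809 without 1 library: 809 without KO replicate 1, 138 without KO replicate 2, 8 without KO replicate 3, 174 without WT replicate 1 and 210 without WT replicate 3. The difference of the medians ran from -0.51 to -0.22 without 1 library. Cdkn1a turned to -0.0064 with edgeR and TMM factors, -0.021 with voom, -0.025 with TMM factors in limma and -0.051 with equal total reads. Mcm3 turned to 0.085 and Mcm6 to 0.022 on the macrophage scale, and Mcm3 to 0.0063 with transcripts summed. Without 1 library, the changes spanned 0 for Mcm2 (-0.36 to 0.022), Mcm3 (-0.14 to 0.11), Mcm6 (-0.34 to 0.016), Cdk1 (-0.37 to 0.11), Plk1 (-0.79 to 0.13), Ube2c (-0.80 to 0.020), Ccne1 (-0.51 to 0.0010), Ccne2 (-0.36 to 0.043) and Cdkn1a (-0.17 to 0.15). The cause was not tested. Replicate numbers are shared by the groups, but same-numbered libraries did not deviate together, with correlations of -0.015, 0.088 and -0.14. With the replicate block 539 genes were called, and 0 of the 37. Other alternatives changed no call of the 37 genes.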

Other observations

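Kinases, their activators and inhibitors beyond the 37 genes were mixed. Of 20, 11 had a log2 change below 0 (median -0.0067), and none was called by limma, where 2.44% of all genes were. At an unadjusted p under 0.05, 0 were lower and 2 higher, where 5.9% and 12.1% of all genes were. Cdkn1c, which encodes the inhibitor p57, had 142, 208 and 182 normalised counts in KO libraries, against 57.7, 122 and 66.8 in WT libraries, without overlap (log2 change 1.16, SE 0.35, limma adjusted p = 0.117). Cdk4, the kinase of the D-type cyclins, stood at 1733 ± 121 in KO and 1279 ± 276 in WT libraries (SD, n = 3 each; log2 change 0.46). Fbxo5, an inhibitor of the anaphase-promoting complex, and Skp2, a ubiquitin ligase subunit that degrades p27, had log2 changes of -1.05 and -0.90.

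Of 16 targets of p53, 7 had a log2 change below 0 (median 0.09), and none was called by limma, where 2.44% of all genes were. At an unadjusted p under 0.05, 1 was lower and 0 higher, where 5.9% and 12.1% of all genes were. Pmaip1, which encodes the death protein Noxa, had 2241, 1785 and 980 normalised counts in KO, against 4358, 2264 and 2094 in WT libraries, with an overlap of KO replicate 1 and WT replicate 3. Phlda3 stood at 166 ± 9.39 in KO and 114 ± 28.3 in WT libraries (SD, n = 3 each). The level of the whole list was 0.08, 0.05 and 0.04 in KO, against 0.06, -0.08 and 0.02 in WT libraries, so the groups overlapped.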
